A study of Mus musculus with 2 samples.

Results

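The genes that acidify and equip the lysosome were described in Purkinje cells, whose inhibitory axons carry the output of the cortex of the cerebellum. The set was chosen by symbol from the protein-coding genes of the deposited tables. It took the V-ATPase subunits (Atp6v0 and Atp6v1), the accessory subunits (Atp6ap), 11 cathepsins (Ctsa, Ctsb, Ctsc, Ctsd, Ctsf, Ctsh, Ctsk, Ctsl, Ctso, Ctss and Ctsz), and Lamp1, Lamp2, Scarb2, Mcoln1, Grn and Tmem106b. It held 43 of 21474 protein-coding genes. One of the 43, Atp6v1fnb, is named as a neighbour of Atp6v1f and is not a pump subunit. RNA-seq had been done on 2 libraries, called pool 1 and pool 2 here, each from 50 pooled Purkinje cells of a male wild type C57Bl6 mouse (source strain B6NCrl) aged 8 months. Both pools belong to 1 group, carry the same donor identifier, and have no treatment, transgene or other genotype in the labels. Separate animals are not stated in the labels, so a difference between the pools may be technical.

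The V-ATPase is a rotary proton pump. Its cytosolic V1 part hydrolyses ATP and turns a central rotor, and its V0 part in the membrane moves protons through a ring of proteolipid subunits into the lysosome, the endosome or the synaptic vesicle. Several subunits have paralogs that differ between tissues, and neurons are known for a subset of them. Cathepsins are proteases that work in the acid lumen. LAMP proteins, LIMP-2, the channel TRPML1 and TMEM106B sit in the lysosome membrane, and progranulin is delivered to the lumen. Loss of several of these proteins causes neurodegenerative storage disease in humans, among them cathepsin D, cathepsin F and progranulin. Many lysosomal genes carry an E-box in the promoter that TFEB and its relatives bind.

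Expression was read as TPM, a level scaled by transcript length and library total that lets genes of different length be compared, and in expected counts, the estimated number of reads per gene. Pool 1 had 23830685 expected counts and pool 2 had 27907662, of which the 43 genes took 190535 and 237737. The Purkinje label was borne out by its markers, with 8 of 8 detected and a summed level of 15091 TPM in pool 1 and 12922 TPM in pool 2. Pcp2, a Purkinje marker, stood at 6245 and 6524 TPM. The pools also held markers of Bergmann glia and astrocytes (8 of 8 detected, summed level 3982 TPM in pool 1 and 4338 TPM in pool 2), oligodendrocytes (6 of 6, 218 and 213 TPM), granule cells (4 of 5, 97.6 and 123 TPM), endothelial cells and pericytes (6 of 6, 108 and 136 TPM), microglia (6 of 10, 29.2 and 43.7 TPM) and blood (4 of 4, 649 and 2273 TPM). In such bulk pools, fewer cells of a type and less RNA per cell cannot be told apart, and how much of each lysosomal gene came from those other cells was not tested.

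Of the 43 genes, 34 were detected, meaning a level of at least 1 TPM in both pools, beside 51.7% of all protein-coding genes. The detected members were abundant. Their median level (mean of the pools) was 122 TPM, beside 12.3 TPM over all 11092 detected protein-coding genes, and their median rank among those genes was the 90.3rd percentile. A level of at least 100 TPM was reached by 19 of the 34 (55.9%), beside 11.4% of all detected genes. Together the members made up 0.616% of TPM in pool 1 and 0.626% in pool 2.

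Sequences are given first for the 2 features that set members apart from each other, the promoter E-box and the alternative coding segments. Promoter windows of 250 bases before to 50 bases after the start site, from RefSeq on GRCm38.p6, were found for 34 of the 43 genes. No window was matched for Atp6ap1l, Atp6v0a2, Atp6v0d2, Atp6v1b2, Atp6v1c1, Atp6v1g1, Atp6v1h, Ctsb and Ctsh. The core E-box, CACGTG, was in 10 of the 34 (29.4%), beside 8.09% of 27025 genes with a window, both strands searched. That background was not limited to protein-coding or detected genes, so it is unlike the members in kind and level. Those 10 were Atp6v0b, Atp6v0d1, Atp6v0e, Atp6v1a, Ctsa, Ctsd, Ctsf, Ctsl, Lamp1 and Mcoln1. The longer form TCACGTGA, which contains the core and reads the same on both strands, was in 6 of the 34 (17.6%), beside 1.12% of all. The 6 genes are shown because they hold this full form. Capitals mark the motif, and each line has 20 bases on either side of it.
Atp6v0d1, chr8:105566041-105566088, minus strand: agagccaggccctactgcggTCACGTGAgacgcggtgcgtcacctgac
Atp6v0e, chr17:26676378-26676425, plus strand: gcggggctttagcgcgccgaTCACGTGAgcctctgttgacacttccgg
Atp6v1a, chr16:44139364-44139411, minus strand: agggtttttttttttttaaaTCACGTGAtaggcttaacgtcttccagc
Ctsa, chr2:164833740-164833787, plus strand: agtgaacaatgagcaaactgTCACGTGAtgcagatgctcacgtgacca
Ctsd, chr7:142387899-142387946, minus strand: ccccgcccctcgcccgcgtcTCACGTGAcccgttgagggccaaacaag
Mcoln1, chr8:3500453-3500500, plus strand: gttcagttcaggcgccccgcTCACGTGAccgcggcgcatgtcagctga

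These 6 genes code for 3 pump subunits, 2 proteases and the TRPML1 channel. The Ctsa window held the motif again a few bases downstream, seen in lower case near the end of its line. In the window of Atp6v1a the motif began 132 bases before the start site, and in that of Atp6v0e it began 2 bases after it. Detected members with the full form had a median level of 76.4 TPM (6 genes). Those with a window but without it had 147 TPM (20 genes). For the core CACGTG the order was the other way, at 108 TPM with it (10 genes) and 98.2 TPM without it (16 genes). A match describes letters only and shows no binding.

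The alternative segments are shown because they separate transcripts of 1 gene that were both abundant. Capitals mark a segment that 1 transcript has and the other lacks. In Lamp2 the lines give the last 36 coding bases of each transcript, and capitals mark the last 15. The segments were read from GENCODE M21 transcripts on GRCm38.
Atp6v1h, exon absent from the leading transcript, chr1:5101070-5101123, plus strand: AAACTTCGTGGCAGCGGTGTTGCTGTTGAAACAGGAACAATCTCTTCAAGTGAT
Ctsd, segment of the leading transcript, chr7:142377333-142377350 without its flanks, minus strand: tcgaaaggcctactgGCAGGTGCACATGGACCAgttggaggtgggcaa
Lamp2, LAMP-2A form, chrX:38405435-38405470, minus strand: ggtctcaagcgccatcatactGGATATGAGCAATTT
Lamp2, LAMP-2B form, chrX:38421715-38421750, minus strand: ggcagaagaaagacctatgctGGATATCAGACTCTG
Lamp2, LAMP-2C form, chrX:38402142-38402177, minus strand: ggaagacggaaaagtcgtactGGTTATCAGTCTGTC

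The V1 part was expressed through 1 paralog per subunit, except for subunit G, which had a pair at close levels. Of 13 V1 genes 9 were detected, and the 13 summed to 2609 TPM in pool 1 and 2710 TPM in pool 2. Atp6v1a, the catalytic A subunit, had 100 TPM in pool 1 and 94.6 TPM in pool 2. Atp6v1b2, the widely expressed B subunit that shares the nucleotide-binding ring with A, had 120 and 129 TPM. The ring subunits thus lay within a narrow range and were below both rotor subunits. Atp6v1d, the rotor shaft, had 340 TPM in pool 1 and 342 TPM in pool 2. Atp6v1f, its partner in the rotor, had 578 and 648 TPM and was the highest V1 gene in both pools.

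Subunits E and G form the peripheral stalks that hold the ring still. Atp6v1e1 had 425 TPM in pool 1 and 448 TPM in pool 2. Atp6v1g1, the broadly expressed G subunit, had 369 and 392 TPM. Atp6v1g2, known as the brain form of G, had 361 and 379 TPM. The ranges of the G pair overlapped, and Atp6v1g1 took 50.7% ± 0.231 of their summed TPM (SD, n = 2 pools). Atp6v1c1, subunit C, which leaves the complex when V1 detaches, had 168 TPM in pool 1 and 155 TPM in pool 2. Atp6v1h, the regulatory subunit H, had 148 and 120 TPM. In order of level, V1 ran Atp6v1f, Atp6v1e1, Atp6v1g1, Atp6v1g2, Atp6v1d, Atp6v1c1, Atp6v1h, Atp6v1b2 and Atp6v1a, and the pool ranges overlapped only between the G pair and between Atp6v1h and Atp6v1b2.

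In the V0 part, where 7 of 9 genes were detected, the proteolipid c stood far above the rest. Atp6v0c, which forms most of the proton-carrying ring, had 1069 TPM in pool 1 and 1188 TPM in pool 2, at the 99.2nd percentile of detected genes. A pseudogene copy, Atp6v0c-ps2, was listed at 23.1 and 21.4 TPM, and the deposited tables give an uncertainty of 21.7 and 22.9 counts for how reads were divided, against 22923 and 32281 counts for Atp6v0c. Atp6v0b, the c'' subunit of the same ring, had 332 TPM in pool 1 and 354 TPM in pool 2. It thus lay well below Atp6v0c and near the rotor subunit Atp6v1d. Atp6v0d1, which joins the ring to the rotor, had 54.0 TPM in pool 1 and 57.0 TPM in pool 2.

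Subunit e, a small membrane protein, was split between its paralogs. Atp6v0e had 162 TPM in pool 1 and 167 TPM in pool 2, and Atp6v0e2, the form known from brain, had 131 and 149 TPM. The ranges of the pair did not overlap, and Atp6v0e took 54.2% ± 1.76 of their summed TPM (SD, n = 2). Atp6v0a1, the a subunit of neurons and synaptic vesicles, had 71.8 TPM in pool 1 and 35.6 TPM in pool 2. Atp6v0a2, known from the Golgi and endosomes, had 8.84 and 6.90 TPM. Atp6v0a1 took 86.4% ± 3.73 of the TPM of the a subunits that the symbol rule covers (SD, n = 2). With Tcirg1, the osteoclast a subunit, whose symbol falls outside the rule, Atp6v0a1 took 86.5% in pool 1 and 80.9% in pool 2, and Tcirg1 took 2.82% and 3.37%. The a subunits were the lowest of the pump: Atp6v0a1 overlapped Atp6v0d1 in its range, and Atp6v0a2 lay below all other detected subunits.

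Paralogs known from kidney, osteoclasts or testis were at or near 0. Atp6v1b1, the kidney and inner ear B subunit, had 0.55 TPM in pool 1 and 0.52 TPM in pool 2, from 20 and 24 counts. Atp6v0a4, the kidney a subunit, had 0.03 and 0.01 TPM. Atp6v0d2, the osteoclast d subunit, had 0.04 and 0.03 TPM. None of these reached 1% of its subunit. Atp6v1c2 had 0.04 TPM in pool 1 and 0.15 TPM in pool 2, from 1 and 2 counts. Its range overlaps 50 exon bases of Pdia6 on the other strand. Atp6v1e2, the testis E subunit, was listed at 0 in both pools, where a limit of 3 counts allows up to 0.167 and 0.132 TPM. Atp6v1g3, the kidney G subunit, was also at 0, with limits of 0.0846 and 0.0667 TPM. Atp6v1fnb was at 0 TPM in both, with limits of 0.259 and 0.204 TPM. Such limits, and the intervals given further on, cover counting error in the gene's total counts only.

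The accessory subunits were as abundant as the core ones. Atp6ap2, the (pro)renin receptor, which is built into V0, had 313 TPM in pool 1 and 261 TPM in pool 2. Atp6ap1, also called Ac45, had 234 and 217 TPM. Atp6ap1l, named for its likeness to Atp6ap1, had 124 and 80.9 TPM. All 3 were higher in pool 1 by any amount. This was also the more common direction, since only 40.3% of all detected protein-coding genes were lower in pool 1. Atp6ap2 took 46.6% of their summed TPM in pool 1 and 46.7% in pool 2.

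**Figure D1:**
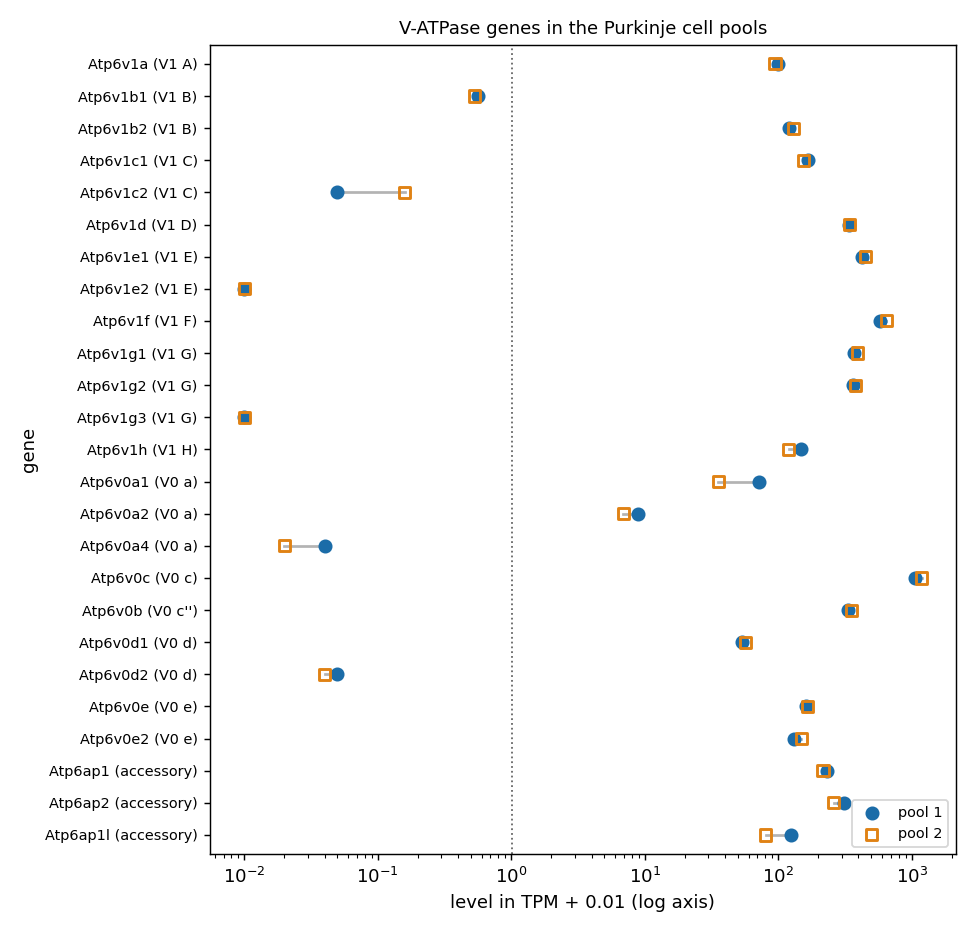
Levels of the V-ATPase subunit genes and accessory genes in pool 1 (filled circles) and pool 2 (open squares), in TPM + 0.01 on a log axis, with the subunit in brackets and a dotted line at the detection level of 1 TPM. Subunits B, C, E and d have 1 gene on the right and a paralog left of the line. Subunits G, e and a have a pair on the right, and Atp6v0a1 has the widest gap between pools among the detected genes shown.

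Among the 11 cathepsins, 9 were detected, with a summed level of 648 TPM in pool 1 and 678 TPM in pool 2. Ctsb, a cysteine endopeptidase, had 229 TPM in pool 1 and 212 TPM in pool 2 and was the highest in both. Ctsl, the other main cysteine endopeptidase, had 148 and 160 TPM. Ctsd, the aspartic protease, had 115 and 122 TPM. These 3 took 33.4% ± 2.84, 23.2% ± 0.458 and 17.9% ± 0.170 of cathepsin TPM (SD, n = 2), and their ranges did not overlap. Ctsb shares 774 of its 6051 exon bases with Fdft1 on the other strand, and since no strand setting was given, reads there cannot be assigned to 1 of them. Fdft1 itself was at 18.0 TPM in pool 1 and 17.6 TPM in pool 2. Among the pump genes such overlaps were shorter or had a weakly expressed partner: Atp6v0b shares 243 of 2051 bases with Gm12841 (0 and 1.01 TPM), Atp6v1g2 shares 144 of 2510 with Nfkbil1 (1.17 and 0.61 TPM), and Atp6v1h shares 127 of 9746 with Rgs20 (15.5 and 9.20 TPM).

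A middle group followed. Ctsa, a serine carboxypeptidase that protects β-galactosidase and neuraminidase, had 47.7 TPM in pool 1 and 47.9 TPM in pool 2. It overlaps Pltp and Neurl2 over 495 and 324 of its 4715 exon bases. Ctsf, a cysteine protease, had 38.2 TPM in pool 1 and 55.2 TPM in pool 2. Ctsz, a cysteine carboxypeptidase, had 31.0 and 43.0 TPM. The pool ranges of Ctsa, Ctsf and Ctsz formed an unbroken chain, Ctsf overlapping each neighbour, so their order is not set. Ctso, a little studied cysteine cathepsin, lay below all of them, at 26.8 TPM in pool 1 and 23.8 TPM in pool 2.

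The remaining 4 cathepsins, some of them known from immune cells or bone, were low. Ctss, the cathepsin of microglia and antigen-presenting cells, had 4.94 TPM in pool 1 and 9.65 TPM in pool 2. Ctsh, an aminopeptidase, had 4.56 and 3.08 TPM. Ctsc, which activates granule proteases of immune cells, had 1.23 TPM in pool 1 and 0.80 TPM in pool 2, so only pool 1 passed the detection level. Ctsk, the collagen-degrading cathepsin of osteoclasts, had 0.91 and 0.32 TPM, from 25 and 11 counts. Even Ctss, the highest of the 4, took 0.763% of cathepsin TPM in pool 1 and 1.42% in pool 2.

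Lamp1, the abundant membrane glycoprotein, led the 6 membrane and lumen genes. It had 233 TPM in pool 1 and 226 TPM in pool 2, and took 60.2% ± 3.55 of their summed TPM (SD, n = 2). It shares 249 of 2675 exon bases with Grtp1 on the other strand. Lamp2 had 66.2 TPM in pool 1 and 47.4 TPM in pool 2. Tmem106b, a membrane protein linked to risk of frontotemporal dementia in humans, had 47.8 and 29.8 TPM. The ranges of Lamp2 and Tmem106b overlapped only at the edge. Mcoln1, the TRPML1 calcium channel, had 25.6 TPM in pool 1 and 27.2 TPM in pool 2. Grn, progranulin, had 18.1 and 21.4 TPM. Scarb2, or LIMP-2, the carrier of glucocerebrosidase, had 12.8 and 8.52 TPM and was the lowest of the 6.

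**Figure D2:**
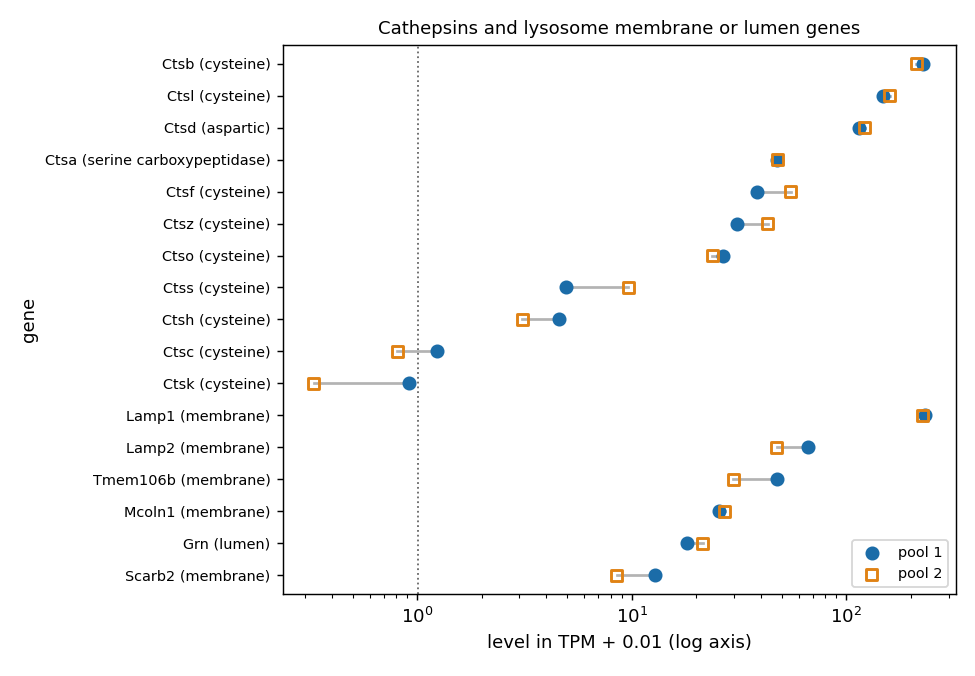
Levels of the cathepsins and of the membrane and lumen genes in pool 1 (filled circles) and pool 2 (open squares), in TPM + 0.01 on a log axis, with the protease class or place in brackets and a dotted line at 1 TPM. Ctsb, Ctsl, Ctsd and Lamp1 exceed 100 TPM in both pools, and Ctsc has only pool 1 to the right of the line. Ctss lies further right in pool 2, and Tmem106b in pool 1.

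Transcripts were compared for the 31 members at a mean of at least 10 TPM. Of these, 20 had more than 1 annotated transcript, and all 20 had the same leading transcript in both pools. In 9, at least 2 transcripts reached 10% of the gene's TPM: Atp6ap1l, Atp6v0a1, Atp6v0b, Atp6v1h, Ctsd, Ctso, Grn, Lamp2 and Mcoln1.

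Lamp2 was read as all 3 of its splice forms, whose printed tails differ. They share 1108 coding bases and have 137, 137 and 140 of their own in LAMP-2A, LAMP-2B and LAMP-2C. LAMP-2B led with 38.9% of the gene's TPM in pool 1 and 35.6% in pool 2. LAMP-2C, the form described as taking up nucleic acids, had 31.6% and 29.6%. LAMP-2A, the receptor of chaperone-mediated autophagy, had 25.9% and 28.6%. The order of the 3 was the same in both pools, though LAMP-2A in pool 2 came close to LAMP-2C. The capitals in the printed tails mark the end of the protein, where the lysosome sorting signal lies.

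In Atp6v1h the form without the printed exon of 54 bases led. This 1811 nt transcript had 72.1% of the gene's TPM in pool 1 and 72.9% in pool 2, and the 2049 nt transcript, which has the exon, had 25.3% and 23.5%. In Ctsd the form with the printed segment led. It had 61.1% of TPM in pool 1 and 60.1% in pool 2, and the form without it had 38.9% and 39.9%. Both divisions differed by under 2 percentage points between pools. The lengths of the Ctsd transcripts in the deposited tables, 2128 and 1887 nt, differ from 2127 and 1922 nt in the annotation that the segment was read from.

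The level of Atp6v0a1 rested mostly on a short transcript. This transcript, of 373 nt and annotated as protein-coding, shares 303 bases with exons 2 to 4 of the 22 exons of the full-length form and lies at chr11:101010657-101020515. It had 44.8 TPM in pool 1 and 18.9 TPM in pool 2, which is 62.4% and 53.2% of the gene. The full-length form, of 4008 nt, had 10.9 TPM in pool 1 and 7.49 TPM in pool 2, or 15.2% and 21.1%. By expected counts the order turned round: the short form had 244 and 130 counts, or 16.4% and 12.0% of the gene, and the full-length form had 845 and 737 counts, or 56.8% and 67.7%. A processed transcript of 828 nt had 12.8 TPM in pool 1 and 6.98 TPM in pool 2, or 17.9% and 19.6% of TPM. A gene level in TPM sums all transcripts, so most of the 71.8 and 35.6 TPM of Atp6v0a1 belongs to the short form. The full-length form alone lay near Atp6v0a2, which has 8.84 and 6.90 TPM.

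The other split genes included transcripts that are annotated as non-coding or as retaining an intron. Atp6v0b had a retained-intron transcript at 27.6% of TPM in pool 1 and 17.7% in pool 2, beside 69.5% and 79.2% for its leading coding form. Mcoln1 had one at 22.2% and 22.9%, beside 58.0% and 57.7%. Another retained-intron transcript of Mcoln1, of 621 nt, had 10.1% in pool 1 and 0.01% in pool 2. A 626 nt coding form of Mcoln1 had 9.56% and 17.9%. The 3468 nt coding form of Ctso led its gene with 70.3% in pool 1 and 56.6% in pool 2, and its other transcripts were a retained intron and a processed transcript. The leading progranulin form of Grn, of 2340 nt, had 82.7% and 67.6%, while a 1235 nt form had 5.13% in pool 1 and 22.9% in pool 2. The leading form of Atp6ap1l had 74.6% and 76.8%. By TPM, the divisions of Grn, Ctso, Atp6v0b, Mcoln1 and Atp6v0a1 therefore moved by about 10 points or more between pools. Those of Lamp2, Atp6v1h, Ctsd and Atp6ap1l moved by less than 4. In Mcoln1 the move lay in short forms. Its 621 nt transcript held only 26.69 counts in pool 1 and 0.04 in pool 2. By expected counts, the leading form of Mcoln1 had 84.2% in pool 1 and 83.8% in pool 2. The leading forms of Ctso (90.8% and 84.6%), Grn (92.6% and 82.2%) and Atp6v0b (78.9% and 86.2%) moved more on that scale.

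**Figure D3:**
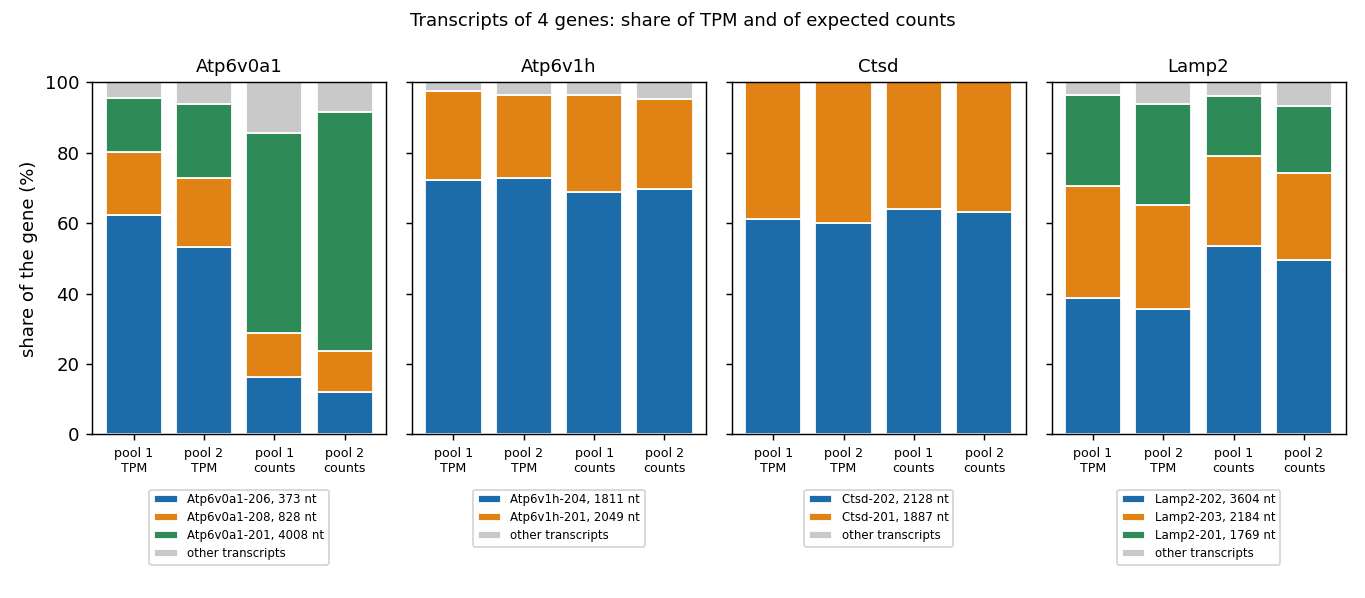
Share of each gene, in percent, taken by its transcripts of at least 10% in either pool, for Atp6v0a1, Atp6v1h, Ctsd and Lamp2. In each panel the left bars give shares of TPM in pool 1 and pool 2 and the right bars shares of expected counts, with grey for all other transcripts. In Atp6v0a1 the 373 nt form leads by TPM and the 4008 nt form by counts, while Atp6v1h and Ctsd look alike on both scales.

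The pools were set side by side as a log2 ratio of pool 1 over pool 2 on TPM + 1. A library protocol is linked in the labels for pool 2 only. With 1 library on each side there is no test, and a gene is called past the fold when the ratio exceeds 1.5 in either direction. Past the fold and higher in pool 1 were 3 of the 34 detected members, where 5.90% of all detected protein-coding genes were. Past the fold and lower in pool 1 was 1 member, where 2.63% of all were. Counts this small are close to what those background shares would give among 34 genes. The members' median log2 ratio was -0.02, beside 0.08 over all detected genes, and their spread was 0.354 (SD), beside 0.344. The 16 detected pump subunits had a median of -0.07 and ranged from -0.18 to 0.99. Of them 11 (68.8%) were lower in pool 1 by any amount, beside 40.3% of all detected genes. That share covers all transcript lengths, and no share matched on length was taken. Many of the subunits have transcripts under 1500 nt, and all detected genes of that length had a median of -0.09. Apart from Atp6v0a1, the highest subunits were Atp6v0a2 at 0.32 and Atp6v1h at 0.30.

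Atp6v0a1 (chr11:101009452-101063719) was the furthest apart of the members. It had 71.8 TPM in pool 1, with an exact Poisson 95% interval of 68.2 to 75.5, and 35.6 TPM in pool 2, with 33.5 to 37.7, a log2 ratio of 0.99. On CPM (each count scaled to its library total) the log2 ratio was 0.66. As the transcript values show, most of the gap in TPM lay in the short transcript. That transcript held 244 counts in pool 1 and 130 in pool 2. The intervals were taken from the gene's total counts (1487 and 1088), so they understate the counting error of its TPM. Tmem106b (chr6:13069759-13089269) had 47.8 TPM (46.5 to 49.2) in pool 1 and 29.8 TPM (28.9 to 30.7) in pool 2, a log2 ratio of 0.66. Its ratio was 0.37 after adjustment for transcript length and level. Atp6ap1l (chr13:90883433-90905355) had 124 TPM (119 to 129) in pool 1 and 80.9 TPM (77.3 to 84.5) in pool 2, a log2 ratio of 0.61, only just past the fold. Its log2 ratio was -0.049 with the spike-ins as the scale, which moves the median of all genes to -0.58. Scarb2, at 0.53, was the nearest member that stayed inside the fold on this side.

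Ctss (chr3:95526786-95556403) was the member lower in pool 1. It had 4.94 TPM (4.10 to 5.89) from 123 counts in pool 1 and 9.65 TPM (8.60 to 10.8) from 305 counts in pool 2, a log2 ratio of -0.84. The intervals did not overlap, and with a pseudocount of 5 the ratio was -0.56, inside the fold. Of 10 microglial markers, 6 were detected, and 5 of those 6 were lower in pool 1 by any amount, beside 40.3% of all detected genes. P2ry12, the sixth, had 3.14 TPM in pool 1 and 2.86 TPM in pool 2. Counting the undetected ones, 8 of 10 were lower in pool 1, the single genes ranging from 0.28 to 8.66 TPM in pool 1 and from 0.28 to 12.8 TPM in pool 2. Of the detected ones, Aif1 and C1qc were past the fold. Tmem119, which was not detected, stood at 0.28 TPM in both pools, and no gene of the list was at 0 in both. Of 4 perivascular macrophage markers none was detected, with a summed level of 0.79 TPM in pool 1 and 0.12 TPM in pool 2 and Lyve1 at 0 in both. All 4 haemoglobin genes were lower in pool 1. The part of these cells in the Ctss difference was not tested. Ctsf, at -0.52, and Ctsz, at -0.46, were the next lowest members and stayed inside the fold.

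Transcript length moved with the pool ratio across all genes, and the members followed it. Members under 1500 nt had a median log2 ratio of -0.08 (13 genes), beside -0.09 for all detected genes of that length. Those of 1500 to 2500 nt had -0.04 (14 genes), beside 0.03. Those of 2500 nt or more had 0.16 (7 genes), beside 0.20. Tmem106b belongs to the longest class, and Atp6v0a1, through its short transcript, Atp6ap1l and Ctss to the shortest.

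**Figure D4:**
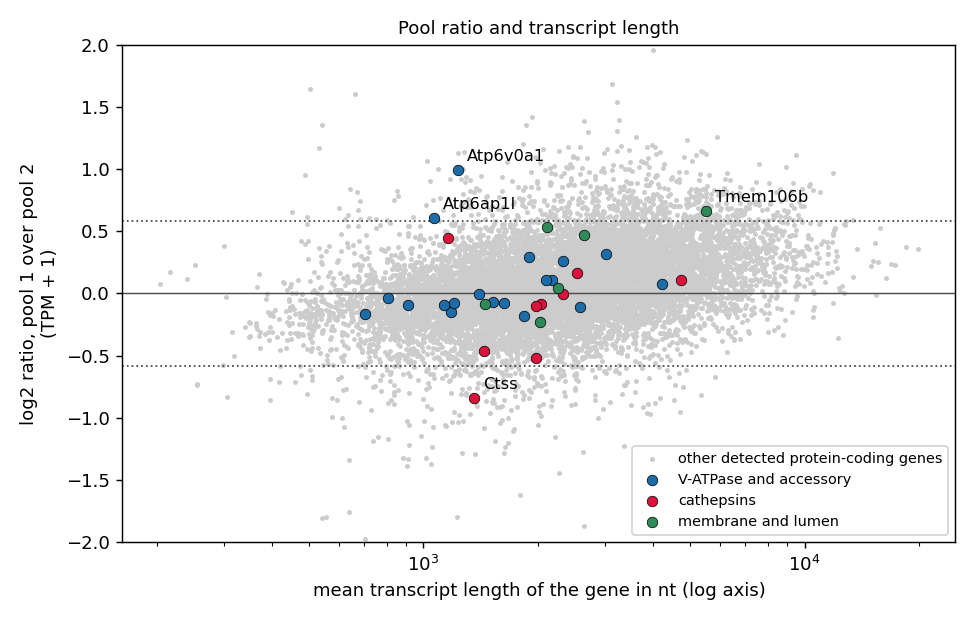
Log2 ratio of pool 1 over pool 2 (TPM + 1) against mean transcript length in nt on a log axis for the 34 detected members (coloured by kind) and the other detected protein-coding genes (grey), with dotted lines at 1.5 fold and 4 genes beyond the axes. The grey cloud climbs with length. Atp6v0a1, Atp6ap1l and Tmem106b lie above the upper line and Ctss below the lower one.

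The rest of the lysosomal system was read from 81 further genes in 6 lists, with the 2 highest of each by the mean of the pools named. As a scale for all 6 lists, 51.7% of all protein-coding genes were detected. Of those detected, 5.90% were past the fold and higher in pool 1, and 2.63% were past it and lower. Of 11 assembly factors and regulators of the pump, 10 were detected, led by Rogdi, a partner of the rabconnectins, at 132 TPM in pool 1 and 133 TPM in pool 2, and by Tmem199, an assembly factor, at 82.9 and 81.6 TPM. Their median log2 ratio was 0.28, beside 0.08 over all detected protein-coding genes. Among the 10, only Dmxl1 was past the fold (13.6 TPM in pool 1 and 8.00 TPM in pool 2). Of 28 genes listed as lysosomal hydrolases, 26 were detected. They were led by Ppt1, a thioesterase, at 98.2 and 85.9 TPM, and by Psap, the saposin precursor, at 57.7 and 54.1 TPM. Smpd1, close behind Psap on the mean, was above it in pool 2 (52.1 TPM in pool 1 and 59.2 TPM in pool 2). None was past the fold. Ppt1 lay below Ctsb, Ctsl and Ctsd and above every other cathepsin in both pools. The median over the detected hydrolases was 16.7 TPM, against 46.7 TPM for the 9 detected cathepsins.

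Of 16 other lysosome membrane genes, 13 were detected, led by Laptm4b at 300 TPM in pool 1 and 291 TPM in pool 2 and by the tetraspanin Cd63 at 255 and 284 TPM, with none past the fold. Of 4 cystatins, the inhibitors of cysteine cathepsins, 3 were detected. Cst3, the secreted form, had 1680 TPM in pool 1 and 2232 TPM in pool 2, above every cathepsin, and Cstb, the cytosolic form, had 345 and 390 TPM. All 9 sorting genes were detected, led by the retromer gene Vps29 at 494 and 443 TPM and by the mannose 6-phosphate receptor gene M6pr at 76.9 and 72.7 TPM. M6pr was second on the mean only, since Gnptg was above it in pool 2 (65.6 TPM in pool 1 and 74.2 TPM in pool 2). Sort1, sortilin, was past the fold at 20.2 TPM in pool 1 and 12.4 TPM in pool 2. Of 13 genes for lysosome transcription and mTORC1 docking, 11 were detected, led by the Ragulator genes Lamtor5 at 323 and 337 TPM and Lamtor2 at 199 and 207 TPM. The 4 factors of the TFEB family are named outside the naming rule. Tfe3 had 3.86 TPM in pool 1 and 4.02 TPM in pool 2, and Mitf had 3.38 and 2.22 TPM. Tfeb, at 0.70 and 0.32 TPM, and Tfec, at 0 and 0.02 TPM, were below the detection level.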

How the data were processed

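RNA of more than 200 nt from 2 pools of 50 cells was sequenced with spike-ins. The labels link a laser capture protocol for both pools and a Smart-seq protocol for pool 2 only. Both levels of table come from alignments to mm10 and the GENCODE M4 transcriptome, per the notes deposited with each sample; aligner, quantifier and strand setting are not given in the sources used here. Expected counts, as deposited, are estimates and can be fractional. TPM, as deposited, sums to one total per library with spike-ins included. The deposited percent per transcript is its share of the gene's TPM. Names came from GENCODE M21, matching 42462 of 43346 mouse genes, and sequences from it and from RefSeq. Levels, shares, exact Poisson 95% intervals (scipy 1.17.1) and log2 ratios of TPM + 1 were computed with pandas 2.3.3. Length adjustment used lowess (statsmodels 0.14.6, span 30%). Both pools form 1 group, so no test was run. Scaling alternatives used edgeR 4.0.16 (TMM) and DESeq2 1.42.0 (size factors) on the expected counts. Log2 ratios scaled by TMM and the length adjustment were tested on simulated counts. The other calculations were not tested in that way. Every member is named, with list genes named by rank on the mean or by passing the fold; Tcirg1, the TFEB family, single markers, Smpd1, Gnptg, the pseudogene copy and overlapping genes were named after their values were seen. The members, the lists and these rules were chosen with earlier results of these data known. The proteins of paralog pairs were planned but are not printed, since no protein table was used here.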

Additional observations from a re-analysis of the deposited data

How the results depend on the processing

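Across 23 results and 87 alternatives, 60 values stayed within their tolerance (a factor of 1.5 for counts, 0.1 for median log2 ratios, 1 SD between pools for other values, and the same side of the fold for single genes), 18 moved beyond it, 8 fell short of the fold and 1 reversed. With 2 pools, a share with 1 pool left out always lies within 1 SD of the mean share. Those values could not move, so their place among the 60 says nothing on stability. The shares from expected counts given below all moved. The number of detected members was 34 or 35 with 1 pool left out, 32 at a minimum of 5 TPM and 37 at 0.1 TPM. At 5 TPM 20 hydrolases were detected, and at a mean of 50 TPM 6 members had split transcripts. The median percentile was 90.3 to 90.4 then, 92.9 by CPM and 90.5 with no filter on low values. Shares taken from expected counts, which grow with transcript length, were 99.7% for Atp6v1b2, 42.8% for Atp6v1g1, 71.2% for Atp6v0a1, 32.6% for Atp6v0e, 52.9% for Atp6ap2, 55.0% for Ctsb and 52.8% for Lamp1, so Atp6v1g2 and Atp6v0e2 lead their pairs on that scale. The members past the fold and higher in pool 1 numbered 1 with TMM, 1 with DESeq2 size factors (Atp6v0a1 in both), 0 when scaled to the spike-ins and 2 with the length adjustment. Those lower in pool 1 numbered 0 with a pseudocount of 5, 2 with TMM, 2 with DESeq2 size factors (Ctsf and Ctss in both) and 20 with the spike-ins. Spike-in scaling moved the median log2 ratio to -0.68 for the members and to -0.58 for all genes, and reversed Atp6ap1l to -0.049. The ratio of Atp6ap1l lay inside the fold under TMM (0.52) and DESeq2 size factors (0.53), and that of Atp6v0a1 under the spike-ins (0.34). The Tmem106b ratio lay inside the fold under TMM (0.50), DESeq2 size factors (0.50), the spike-ins (0.01) and the length adjustment (0.37). No paired analysis was possible because both pools belong to 1 group. Depth limits the genes with a few counts: 3 counts correspond to at most 0.259 TPM for the undetected members.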
